A study of Xenopus laevis and Xenopus tropicalis with 12 samples.

Results

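The genes described here encode protein phosphatases and their subunits. They were the gene models whose lower-case symbol, in the annotation table deposited with the counts, began with ppp1 to ppp6, ppm1, ptpn or dusp followed by a digit, or ptpr followed by a letter. This gave 124 of 28165 gene models, of which 14513 carry a usable symbol. They comprise 29 members of the PP1 group, 16 of PP2A, 4 of calcineurin, 5 of PP4, 1 of PP5, 4 of PP6, 10 of the PPM1 family, 14 non-receptor and 18 receptor tyrosine phosphatases, and 23 dual-specificity phosphatases. RNA was measured by sequencing in hand-dissected animal and vegetal hemispheres of oocytes from the frogs Xenopus laevis and Xenopus tropicalis, to find transcripts that differ between the hemispheres. The 8 X. laevis libraries came from stage VI oocytes of females A and B, with 2 batches a female (A_t1, A_t2, B_t1, B_t2) and an animal and a vegetal library for each batch. The 4 X. tropicalis libraries came from full-grown oocytes of females 1 and 2, again with both hemispheres. The labels give no strain, age, genotype or treatment for any group.

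Protein phosphatases remove phosphate from proteins and so oppose kinases. PP1, PP2A and their relatives act on serine and threonine as complexes in which a few catalytic subunits pair with many regulatory subunits that set where and on what they act, while PPM1 enzymes are metal-dependent and act largely without such subunits. Tyrosine phosphatases act on phosphotyrosine, either as membrane receptors or inside the cell, and many dual-specificity phosphatases inactivate MAP kinases. Fully grown Xenopus oocytes are arrested in meiotic prophase, and PP2A and PP1 are known there for holding back the kinases that drive entry into meiotic division. The animal hemisphere holds the nucleus, and the vegetal hemisphere holds most yolk and the germ plasm.

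Library totals were 30416352 to 45235154 counts in X. laevis and 7772801 to 28392285 in X. tropicalis, and the phosphatase genes held 1.09% to 1.27% of them. Levels are in CPM, the counts scaled to a common library size, with library sizes scaled by the trimmed mean of M values (TMM). By library totals before that scaling, 3 counts correspond to at most 0.0986 CPM in X. laevis and 0.386 CPM in X. tropicalis. All 6 vegetal marker genes were higher in the vegetal hemisphere in both species, with summed levels of 120 to 198 CPM in animal and 4312 to 6671 CPM in vegetal libraries of X. laevis. In X. tropicalis they were 82.6 to 93.7 CPM and 3025 to 3538 CPM. All 6 oocyte markers were detected in both species, of which 4 in X. laevis and 5 in X. tropicalis were higher in vegetal libraries. The 9 follicle cell markers summed to 81.5 to 155 CPM in animal and 296 to 367 CPM in vegetal libraries of X. laevis, with 1 of 4 tested called vegetal, and to at most 2.12 CPM in X. tropicalis, where 4 were at 0. The highest sums elsewhere were 44.2 CPM for 9 blood and endothelium markers, 5.37 CPM for 6 immune markers and 173 CPM for 7 connective tissue markers. Of the blood and endothelium markers, 1 was called vegetal and 1 animal in X. laevis. Of the immune markers, 1 was called animal in each species. Of the connective tissue markers, 1 was called vegetal in each species. The part of other cell types in the results below was not tested, and in bulk RNA a different number of such cells and a different amount of RNA per cell cannot be told apart.

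Of the 124 members, 110 had enough counts to be tested in at least 1 species, 108 in X. laevis and 98 in X. tropicalis, with 96 tested in both. The 14 tested in neither reached at most 0.831 CPM in any library and included ppp1r1b, ppp1r9b, ppp2r5b, ptpn6 and ptprr. In the list of X. laevis genes, 73 members have both an L and an S copy, whose reads share a single value here, so a difference between the species may lie in either copy. Closely related members such as ppp1cb and ppp1cc, or ppp2ca and ppp2cb, may also share reads, and their split is uncertain.

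In X. laevis most phosphatase transcripts were present in both hemispheres at levels that did not pass the test for a difference. By edgeR's quasi-likelihood test with each batch as a block, 18 of 108 tested members (16.7%) were higher in vegetal and 20 (18.5%) were higher in animal libraries at an adjusted p under 0.05. Over all models tested, 27.7% were called, 13.2% vegetal and 14.4% animal. Calls of at least 2-fold numbered 2 vegetal and 6 animal, 1.85% and 5.56% of tested members, where 3.01% and 3.58% of all models reached this. The median log2 fold change, vegetal over animal, was 0.00 for the members and -0.01 for all models. The 4 libraries of a hemisphere lay wholly above those of the other for 10 members in vegetal and 20 in animal, or 30 of 108 (27.8%), beside 21.3% of all models, 9.25% vegetal and 12% animal. The 2 batches of a female are not separate animals, and without batch A_t2 there were 9 vegetal and 13 animal calls, where calls over all models also fell, to 5.52% and 6.33%.

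In X. tropicalis 16 of 98 tested members (16.3%) were higher in vegetal and 21 (21.4%) were higher in animal libraries, beside 33% of all models called, 15.6% vegetal and 17.3% animal. Calls of at least 2-fold numbered 3 and 4, where 3.29% and 3.63% of all models reached this. The median log2 fold change was -0.02 for the members and -0.01 for all models. Ranges of the hemispheres did not overlap for 37 of 98 members (37.8%), with vegetal above for 17 and animal above for 20, and for 35.7% of all models, 17.5% vegetal and 18.1% animal. The test had 1 residual degree of freedom, so its p-values rest on a spread pooled over all genes. Without the block there were 2 vegetal and 2 animal calls, beside 1.35% and 0.681% of all models. Leaving out any of the 4 libraries as well gave 2 to 4 vegetal and 1 to 6 animal calls, beside 0.875% to 2.47% and 0.101% to 2.25% of all models. Of the named members, ppp1r3b, ppp1r13b and ptprq kept their X. tropicalis call under each alternative run and ptpn9 lost it only without a vegetal library, while the other named members were not called without the block. Their fold changes there were close to those with it, for example 0.82 for dusp22, -0.84 for ppp2cb, -0.98 for ppp4r1l and -0.72 for ppm1f. Scaling by library totals alone left 8 vegetal calls with 21 animal, a vegetal share of 27.6% in place of 43.2%. That scaling shifted the median of all models to -0.07, and 11.1% of them were then called vegetal and 21.2% animal.

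**Figure D1:**
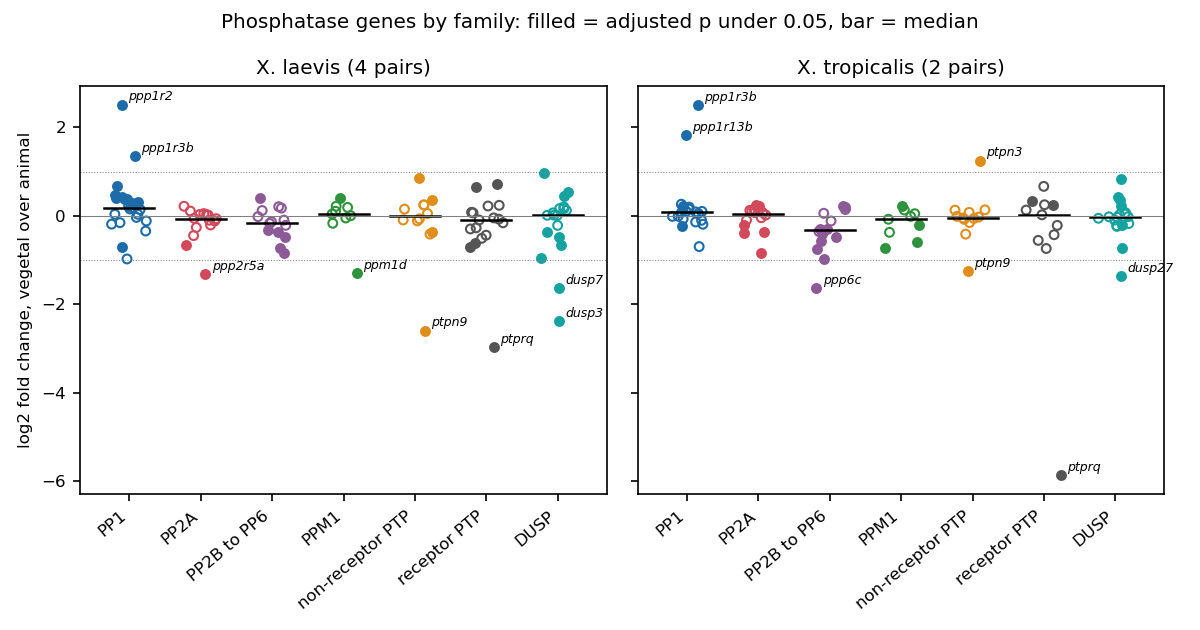
Each circle is a tested phosphatase gene, placed by family and by its log2 fold change (vegetal over animal) in X. laevis (left) and X. tropicalis (right); filled circles have an adjusted p under 0.05, bars are medians, dotted lines mark 2-fold, and PP2B stands for calcineurin. Most genes lie between the dotted lines, with ppp1r2 and ppp1r3b high in X. laevis, ppp1r3b and ppp1r13b high in X. tropicalis, and ptprq lowest in both.

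Of the 18 vegetal calls of X. laevis, 9 lay in the PP1 group, whose regulatory subunits direct PP1 to glycogen, actin, chromatin and other targets. Of 21 tested PP1 regulatory genes, 8 were called vegetal and 1 animal, with a median log2 fold change of 0.18, beside 13.2% and 14.4% of all models. Apart from ppp1r2, ppp1r3b and ppp1r13b, the vegetal calls were at log2 0.29 to 0.41 and were not followed in the alternative runs. Their ranges overlapped between hemispheres except for ppp1r11. Vegetal calls over all members fell from 18 to 9 without batch A_t2 and to 4 in female B alone. The shares of all models were then 5.52% and 6.02%. In X. tropicalis 2 of 18 were called vegetal and 1 animal, with a median of 0.06, beside 15.6% and 17.3% of all models. The catalytic subunit gene ppp1cb was higher in vegetal libraries of both species, at 283 to 308 CPM in animal and 369 to 446 CPM in vegetal libraries of X. laevis, whose ranges did not overlap. Its log2 fold change was 0.46 ± 0.08 (SE, 4 pairs; edgeR adjusted p = 0.0058) in X. laevis and 0.20 ± 0.07 (SE, 2 pairs; adjusted p = 0.0114) in X. tropicalis. The small X. tropicalis call was lost with library totals alone (0.14, edgeR adjusted p = 0.0954) and by DESeq2 (0.21, adjusted p = 0.2). The other catalytic gene, ppp1cc, was 0.21 ± 0.06 higher in vegetal libraries of X. tropicalis (edgeR adjusted p = 0.00209) and did not pass the test in X. laevis at -0.16 ± 0.10 (adjusted p = 0.286).

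The PP1 gene that stood out in both species was ppp1r3b (Xetrov72021747), which encodes a subunit that targets PP1 to glycogen. In X. laevis it was at 364, 306, 359 and 288 CPM in animal libraries of A_t1, A_t2, B_t1 and B_t2, and at 1300, 803, 448 and 1020 CPM in the vegetal libraries. The X. tropicalis levels were 275 and 194 CPM in animal and 1508 and 1138 CPM in vegetal libraries of females 1 and 2. Every vegetal library was above every animal library of its species, with vegetal B_t1 nearest to the animal range. The fold was 2.55 in X. laevis (log2 1.35 ± 0.24, edgeR adjusted p = 0.00523) and 5.67 in X. tropicalis (log2 2.50 ± 0.06, adjusted p = 3.07e-83). The difference between the species was 1.15 ± 0.38 on the log2 scale and did not pass its test (edgeR adjusted p = 0.0883). It passed under 4 of 10 alternatives, namely DESeq2 (adjusted p = 0.0118), no filter on low counts (0.0389), and without batch A_t1 (1.32, 0.041) or B_t1 (0.82, 0.00424).

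The PP1 gene with the highest vegetal fold in X. laevis was ppp1r2 (Xetrov72001906), which encodes inhibitor-2, a protein that binds and restrains the PP1 catalytic subunit. Its animal libraries held 25.9, 26.6, 29.8 and 22.2 CPM and its vegetal libraries 188, 182, 95.1 and 147 CPM, in the same order of batches. The ranges did not overlap, a 5.72-fold difference (log2 2.51 ± 0.20, 4 pairs; edgeR adjusted p = 9.02e-05). In X. tropicalis the same gene was at 84.0 and 67.6 CPM in animal and 80.8 and 77.5 CPM in vegetal libraries, which overlapped (log2 0.09 ± 0.07, edgeR adjusted p = 0.403). The difference between species was -2.44 ± 0.32 (Xt minus Xl, edgeR interaction, adjusted p = 0.00201).

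A vegetal excess in both species, larger in X. tropicalis, was seen for ppp1r13b (Xetrov72012786), known as ASPP1, a p53-binding protein that also binds PP1. It was at 95.5, 83.9, 86.8 and 87.6 CPM in animal and 163, 160, 104 and 146 CPM in vegetal libraries of X. laevis, and at 67.2 and 56 against 234 and 201 CPM in X. tropicalis. All vegetal libraries were above all animal libraries in both species. The log2 fold change was 0.68 ± 0.11 in X. laevis (edgeR adjusted p = 0.00434) and 1.83 ± 0.07 in X. tropicalis (adjusted p = 2.11e-60), and these differed by 1.15 ± 0.18 (adjusted p = 0.00468). The only PP1 regulatory gene called animal in X. laevis was ppp1r9a, the actin-binding neurabin-1, at 4.42 to 5.81 CPM in animal and 2.55 to 3.97 CPM in vegetal libraries, which did not overlap (log2 -0.71 ± 0.12, edgeR adjusted p = 0.00467). In female B alone it was not called, at -0.67. Its value in X. tropicalis was 0.26 ± 0.21 (adjusted p = 0.378), and the species difference passed the test (0.95 ± 0.24, adjusted p = 0.0317). The glycogen-targeting gene ppp1r3c.1 was tested in X. laevis alone, at 3.04 to 10.3 CPM, and was not called (log2 -0.04 ± 0.19, adjusted p = 0.901). Its X. tropicalis libraries were at 0 to 0.262 CPM.

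**Figure D2:**
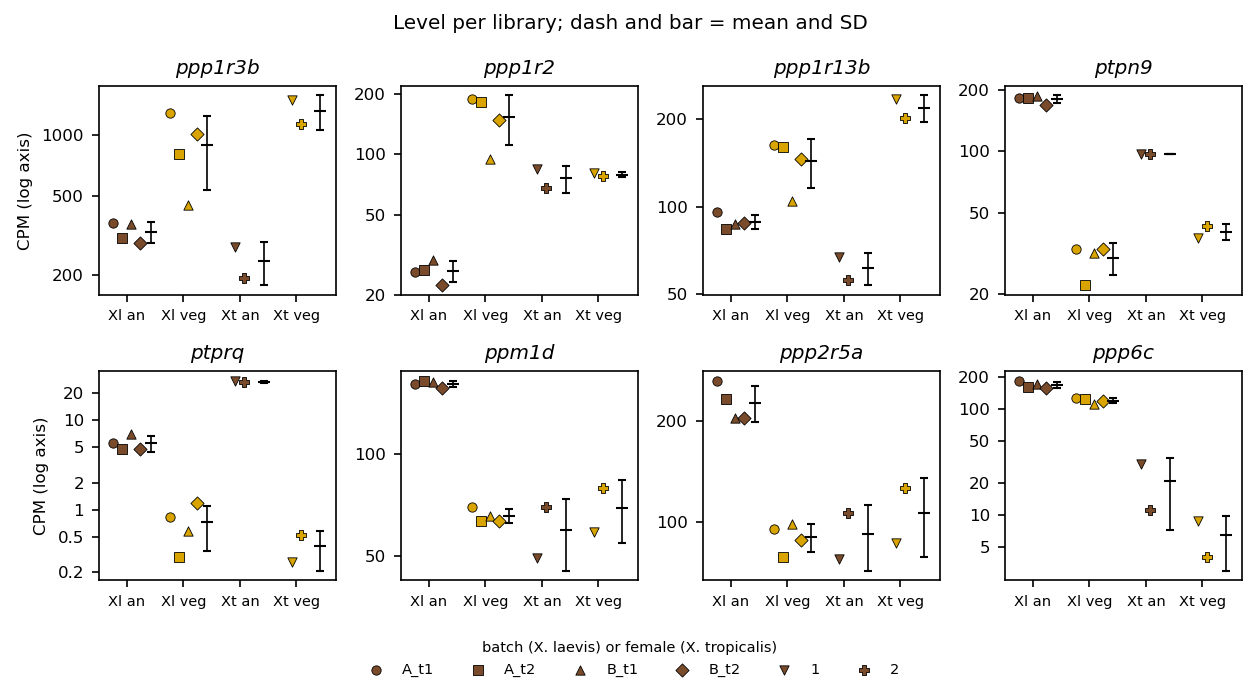
Levels of 8 phosphatase genes in CPM (log axes) in each library, with animal libraries in brown and vegetal libraries in yellow for X. laevis (Xl) and X. tropicalis (Xt); symbols give the batch or female, and dashes with bars give the mean and SD over 4 or 2 libraries. Hemispheres are apart in both species for ppp1r3b, ppp1r13b, ptpn9, ptprq and ppp6c, and in X. laevis alone for ppp1r2, ppm1d and ppp2r5a.

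PP2A joins a catalytic and a scaffold subunit with a regulatory B subunit that chooses its targets. Of 15 tested PP2A genes in X. laevis, 2 were higher in animal libraries and the other 13 were not called. In X. tropicalis 2 of 14 were called vegetal and 4 animal. Calls made up 13.3% of tested PP2A genes in X. laevis and 42.9% in X. tropicalis, beside 27.7% and 33% of all models. Both catalytic genes stayed below the threshold in X. laevis, with ppp2ca at 729 to 843 CPM over all 8 libraries (log2 -0.06 ± 0.07, edgeR adjusted p = 0.571). In X. tropicalis ppp2cb was at 231 and 264 CPM in animal and 137 and 141 CPM in vegetal libraries, which did not overlap (log2 -0.84 ± 0.06, edgeR adjusted p = 8.07e-26). The corresponding value in X. laevis was -0.12 ± 0.07, and the species differed by -0.71 ± 0.11 (edgeR adjusted p = 0.0046).

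The B55 subunits, which in Xenopus egg extracts direct PP2A against mitotic phosphorylation, showed no called difference in X. laevis for any of the 4 tested genes ppp2r2a, ppp2r2b, ppp2r2c and ppp2r2d. Their log2 fold changes were -0.26 to 0.21, and their adjusted p-values 0.0817 (ppp2r2d), 0.0966 (ppp2r2a), 0.104 (ppp2r2b) and 0.945 (ppp2r2c). With library totals alone, ppp2r2a (-0.28, adjusted p = 0.0285) and ppp2r2d (-0.34, adjusted p = 0.0355) were called animal, as was ppp2r2d without batch B_t1 (-0.35, adjusted p = 0.0114). In X. tropicalis ppp2r2b was higher in animal libraries, at 115 and 112 CPM against 91.3 and 83.5 CPM (log2 -0.39 ± 0.07, edgeR adjusted p = 7.16e-07). Its species difference passed the test (-0.59 ± 0.14, adjusted p = 0.023), whereas ppp2r2d, higher in vegetal libraries of X. tropicalis by 0.24 ± 0.06 (adjusted p = 0.0013), missed it at 0.51 ± 0.15 (adjusted p = 0.0552) but passed by DESeq2 (0.49, adjusted p = 0.0381) and without B_t1 (0.61, adjusted p = 0.00302). The X. tropicalis call of ppp2r2d was lost by DESeq2 (0.24, adjusted p = 0.0536). For ppp2r2a the X. tropicalis value was -0.04 ± 0.06 (adjusted p = 0.646), and ppp2r2c was not tested there, with at most 0.174 CPM.

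Among the B56 subunits, which direct PP2A to other substrates including parts of the Wnt pathway, ppp2r5a (Xetrov72001088) differed most between species. Animal libraries of X. laevis held 262, 233, 204 and 204 CPM and vegetal libraries 95.0, 78.6, 98.2 and 88.1 CPM. The ranges did not overlap, a 2.51-fold animal excess (log2 -1.32 ± 0.10, 4 pairs; edgeR adjusted p = 7.99e-05). In X. tropicalis the libraries were at 77.4 and 106 CPM in animal and 86.4 and 126 CPM in vegetal, higher in vegetal within each female but overlapping between females (log2 0.21 ± 0.07, edgeR adjusted p = 0.0102). This small vegetal call became -0.09 when the vegetal library of female 2 was left out, in a fit without the block. The species difference was 1.54 ± 0.16 (adjusted p = 0.000742). The other tested B56 genes were not called in X. laevis, with ppp2r5c at -0.45 ± 0.22 (adjusted p = 0.163) and ppp2r5e at -0.10 ± 0.10 (adjusted p = 0.489), and in X. tropicalis ppp2r5e was higher in animal libraries by a log2 of -0.37 ± 0.06 (adjusted p = 4.6e-08) while ppp2r5c was at 0.07 ± 0.06 (adjusted p = 0.433). The X. laevis value of ppp2r5c depended on the batch, at -0.16 without B_t1 and -0.64 without A_t1, and was called without A_t1 (adjusted p = 0.0397) and with female B alone (-0.62, adjusted p = 0.0244). Of the B double prime genes, ppp2r3a was at 25.6 to 28.0 CPM in animal and 13.9 to 19.8 CPM in vegetal libraries of X. laevis, without overlap (log2 -0.67 ± 0.11, edgeR adjusted p = 0.00453). In X. tropicalis it was at 0.13 ± 0.17 (adjusted p = 0.62), a species difference of 0.79 ± 0.21 (adjusted p = 0.038).

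Calcineurin, PP4, PP5 and PP6 are relatives of PP1 and PP2A and form smaller groups of genes here. Calcineurin answers calcium, and in Xenopus eggs its brief activation accompanies release from meiotic arrest. Its catalytic gene ppp3ca was at 211 to 294 CPM in animal and 109 to 192 CPM in vegetal libraries of X. laevis, without overlap (log2 -0.72 ± 0.18, edgeR adjusted p = 0.0224). Without batch A_t2 the fold was about as large but not called (-0.67, adjusted p = 0.116), and in X. tropicalis the value was 0.06 ± 0.07 (adjusted p = 0.578). The species difference of ppp3ca did not pass its test (0.78 ± 0.30, edgeR interaction, adjusted p = 0.127). It passed under 2 of 10 alternatives, without batch A_t1 (0.94, adjusted p = 0.043) or B_t1 (0.54, adjusted p = 0.0454). The genes ppp3cb and ppp3cc were not called in X. laevis (log2 0.12 ± 0.08 and -0.10 ± 0.18, adjusted p = 0.294 and 0.708), and ppp3cc was higher in vegetal libraries of X. tropicalis by 0.20 ± 0.06 (adjusted p = 0.00495), where ppp3cb was at -0.36 ± 0.16 (adjusted p = 0.0808). That call of ppp3cc was lost with library totals alone (0.14, edgeR adjusted p = 0.0585).

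PP4 and PP6 act in DNA repair, centrosome and spindle control, among other roles. Of the 5 PP4 genes, 4 were higher in animal libraries of X. tropicalis, with a median log2 fold change of -0.42, and 1 was in X. laevis, with a median of -0.17. Over all models 17.3% and 14.4% were called animal. The catalytic gene ppp4c was at 228 and 197 CPM in animal and 129 and 121 CPM in vegetal libraries of X. tropicalis, without overlap (log2 -0.76 ± 0.06, edgeR adjusted p = 3.8e-22). In X. laevis it overlapped between hemispheres, at 92.2 to 218 CPM in animal and 102 to 244 CPM in vegetal libraries (log2 0.21 ± 0.08, adjusted p = 0.108), a species difference of -0.96 ± 0.13 (adjusted p = 0.00208). The regulatory gene ppp4r1l showed a like pattern, at 174 and 198 against 88.0 and 100 CPM in X. tropicalis (log2 -0.98 ± 0.07, edgeR adjusted p = 9.42e-31) and a species difference of -0.81 ± 0.15 (adjusted p = 0.00971). In fits without the block, both genes were not called in X. tropicalis with all libraries or without either vegetal library, nor was ppp4c without the animal library of female 1.

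Of the 4 PP6 genes, 2 were higher in animal and 1 in vegetal libraries of X. laevis, and 3 and 1 in X. tropicalis. Over all models, 14.4% and 13.2% were so called in X. laevis, and 17.3% and 15.6% in X. tropicalis. The catalytic gene ppp6c (Xetrov72016113) was at 182, 161, 170 and 158 CPM in animal and 126, 124, 110 and 118 CPM in vegetal libraries of X. laevis. The X. tropicalis levels were 30.6 and 11.3 CPM in animal and 8.91 and 4.02 CPM in vegetal libraries. The hemispheres did not overlap in either species, and the animal excess was 1.41-fold in X. laevis (log2 -0.49 ± 0.08, edgeR adjusted p = 0.00321) and 3.09-fold in X. tropicalis (log2 -1.63 ± 0.15, adjusted p = 7.09e-19). The folds differed between species by -1.14 ± 0.15 on the log2 scale (adjusted p = 0.00227). Without the block that difference was -1.26 and was not called (edgeR adjusted p = 0.25). In fits without the block that left out 1 library, the X. tropicalis value of ppp6c ran from -2.35 to -0.84. Chosen after their values were seen, the subunit gene ppp6r1 was higher in animal libraries of both species (log2 -0.33 and -0.30, adjusted p = 0.0136 and 4.69e-05) and ppp6r3 was higher in vegetal libraries of both (0.41 and 0.23, adjusted p = 0.02 and 0.00984). The PP5 gene ppp5c, whose product works with the chaperone HSP90, was not called in either species (log2 -0.02 ± 0.08 and 0.14 ± 0.07, adjusted p = 0.873 and 0.0873).

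The PPM1 family gave 1 vegetal and 1 animal call among 9 genes in X. laevis, and 1 and 3 in X. tropicalis. These were 22.2% and 44.4% of tested genes, beside 27.7% and 33% of all models. The strongest difference of the family was in ppm1d (Xetrov72029801), known as WIP1, which removes phosphate from p53 and other DNA damage checkpoint proteins. It was at 160, 163, 162 and 155 CPM in animal and 69.8, 63.2, 65.6 and 63.6 CPM in vegetal libraries of X. laevis, tight groups that did not overlap. The animal excess was 2.44-fold (log2 -1.29 ± 0.08, 4 pairs; edgeR adjusted p = 2.24e-05). In X. tropicalis it was at 49.4 and 69.5 CPM in animal and 58.9 and 79.2 CPM in vegetal libraries, higher in vegetal within each female but overlapping between females (log2 0.21 ± 0.08, edgeR adjusted p = 0.0218). In fits without the block, the vegetal value became 0.00 without the animal library of female 1 and -0.02 without the vegetal library of female 2, and the species difference was 1.51 ± 0.12 (adjusted p = 0.000173). The gene ppm1f, known to act on kinases of the cytoskeleton, was at 186 and 181 CPM in animal and 120 and 103 CPM in vegetal libraries of X. tropicalis (log2 -0.73 ± 0.07, edgeR adjusted p = 1.55e-20), and differed between species by -0.67 ± 0.13 (adjusted p = 0.0105), with an X. laevis value of -0.05 ± 0.09 (adjusted p = 0.692).

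Among the non-receptor tyrosine phosphatases, 2 of 12 tested genes were called vegetal and 2 animal in X. laevis, and 1 and 1 of 12 in X. tropicalis. These were 33.3% and 16.7% of tested genes, beside 27.7% and 33% of all models. The gene ptpn9 (Xetrov72019787) encodes PTP-MEG2, which carries a lipid-binding domain and sits on secretory vesicles. It was at 181, 181, 187 and 169 CPM in animal and 33.2, 22.0, 31.9 and 33.3 CPM in vegetal libraries of X. laevis. Its X. tropicalis levels were 96.9 and 97.2 CPM in animal and 37.7 and 42.8 CPM in vegetal libraries. The hemispheres were separate in both species, with 6.04 times more in animal libraries of X. laevis (log2 -2.59 ± 0.13, edgeR adjusted p = 1.03e-05) and 2.39 times more in X. tropicalis (log2 -1.25 ± 0.08, adjusted p = 1.4e-33). These differed by 1.33 ± 0.20 (adjusted p = 0.00372). In the opposite direction, ptpn3, a phosphatase with membrane-cytoskeleton and PDZ domains, was at 5.59 to 8.03 CPM in animal and 10.2 to 15 CPM in vegetal libraries of X. laevis, without overlap (log2 0.86 ± 0.16, edgeR adjusted p = 0.00594). In X. tropicalis it was at 13.9 and 5.39 CPM in animal and 31.7 and 13.3 CPM in vegetal libraries, higher in vegetal within each female but overlapping between females (log2 1.25 ± 0.14, adjusted p = 8.03e-15). Under the alternative runs the X. tropicalis value of ptpn3 ran from 0.50 to 2.04.

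Among the receptor tyrosine phosphatases, 2 of 17 tested genes were called vegetal and 3 animal in X. laevis, and 2 and 1 of 11 in X. tropicalis. These shares, 29.4% and 27.3% of tested genes, stood beside 27.7% and 33% of all models. The gene with the largest fold of all members was ptprq (Xetrov72040948), whose product in mammals also removes phosphate from phosphoinositide lipids and is best known in hair cells of the inner ear. In X. laevis it was at 5.52, 4.71, 7.01 and 4.75 CPM in animal and 0.824, 0.301, 0.587 and 1.19 CPM in vegetal libraries. Those of X. tropicalis were at 27.2 and 26.3 CPM in animal and 0.262 and 0.520 CPM in vegetal libraries, the latter from 2 and 11 counts. Every animal library exceeded every vegetal library. The fitted log2 fold change was -2.96 ± 0.30 in X. laevis (edgeR adjusted p = 0.000328) and -5.86 ± 0.23 in X. tropicalis (adjusted p = 1.26e-55). The species difference was -2.95 ± 0.65 (adjusted p = 0.0191). The low vegetal counts limit the precision of the X. tropicalis fold, and its SE, derived from the test statistic, understates that uncertainty. Chosen after its values were seen, ptpra, a receptor phosphatase known to activate Src kinases, was higher in vegetal libraries of both species (log2 0.72 and 0.25, adjusted p = 0.00214 and 0.00197). The receptor gene ptprt was tested in X. laevis alone and was not called between hemispheres (0.22 ± 0.16, adjusted p = 0.317).

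Of the dual-specificity phosphatases, 3 of 18 tested genes were called vegetal and 6 animal in X. laevis, and 4 and 3 of 18 in X. tropicalis. Calls thus made up 50% and 38.9% of tested genes, beside 27.7% and 33% of all models. Among the X. laevis calls, dusp3, dusp4, dusp6 and dusp7 had means of only 0.743 to 3.66 CPM. At a mean of at least 5 CPM, 14.9% of all tested members were called animal in X. laevis, beside 18.3% of all models. Vegetal calls there were 18.4% beside 17%. The share of dual-specificity genes under that filter was not computed. The MAP kinase phosphatase gene dusp7, which acts on ERK in the cytoplasm, was at 1.61, 2.07, 1.36 and 2.14 CPM in animal and 0.483, 0.672, 0.614 and 0.544 CPM in vegetal libraries of X. laevis. The ranges did not overlap (log2 -1.63 ± 0.21, edgeR adjusted p = 0.000985), although the level was low. In X. tropicalis dusp7 was at 1.41 and 0.939 CPM against 0.917 and 1.13 CPM (log2 -0.02 ± 0.42, adjusted p = 0.977), a species difference of 1.59 ± 0.42 (adjusted p = 0.0411). The small phosphatase gene dusp3 behaved likewise in X. laevis, at 1.07 to 1.34 CPM in animal and 0.0463 to 0.470 CPM in vegetal libraries (log2 -2.38 ± 0.50, edgeR adjusted p = 0.011). Its vegetal values rested on 14, 2, 3 and 19 counts, and the pair differences ran from -3.84 to -1.11. In X. tropicalis dusp3 stood at 31.9 and 34.3 CPM in animal and 34.7 and 35.1 CPM in vegetal libraries (log2 0.07 ± 0.10, adjusted p = 0.648), and the species difference was 2.40 ± 0.55 (adjusted p = 0.0227). The low X. laevis counts limit the precision of that difference.

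The species difference also passed for dusp22, dusp23 and dusp11. The gene dusp22, a regulator of JNK signalling, was at 122 and 103 CPM in animal and 210 and 187 CPM in vegetal libraries of X. tropicalis, without overlap (log2 0.82 ± 0.06, edgeR adjusted p = 4.28e-25), against -0.22 ± 0.10 in X. laevis (adjusted p = 0.127) and a species difference of 1.04 ± 0.15 (adjusted p = 0.00292). The gene dusp23 was at 7.92 to 10.7 CPM in animal and 12.4 to 26.1 CPM in vegetal libraries of X. laevis (log2 0.98 ± 0.16, adjusted p = 0.00377), with an X. tropicalis value of -0.02 ± 0.11 (adjusted p = 0.897) and a species difference of -0.99 ± 0.26 (adjusted p = 0.0374). The gene dusp11, whose product removes phosphate from RNA ends, was at 140 and 63.5 CPM in animal and 77.8 and 40.8 CPM in vegetal libraries of X. tropicalis, lower in vegetal within each female but overlapping between females (log2 -0.74 ± 0.07, edgeR adjusted p = 3.7e-17). Its X. laevis value was 0.07 ± 0.10 (adjusted p = 0.642) and its species difference -0.80 ± 0.16 (adjusted p = 0.0141). The X. tropicalis value of dusp11 ran from -1.30 to -0.11 in fits without the block that left out 1 library. The gene dusp27 was tested in X. tropicalis alone, at 11.9 and 8.04 CPM in animal and 4.06 and 3.40 CPM in vegetal libraries, without overlap (log2 -1.36 ± 0.20, adjusted p = 1.14e-09).

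**Figure D3:**
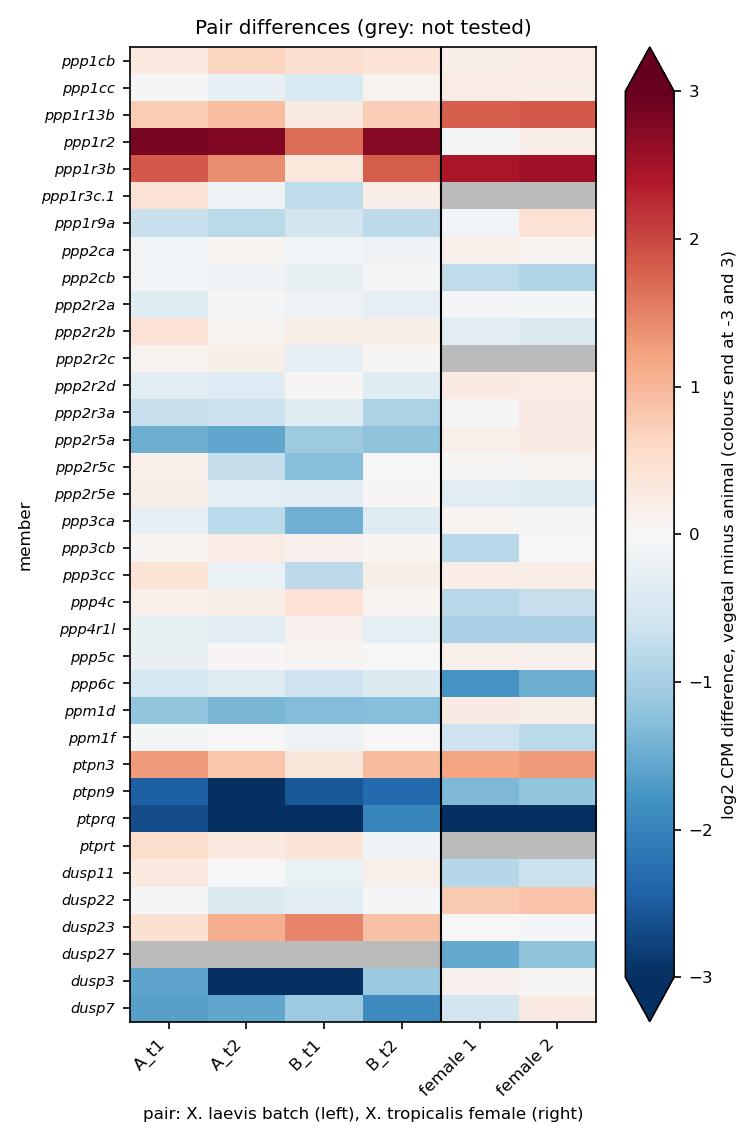
Difference in log2 CPM between the vegetal and the animal library of each X. laevis batch (left of the line) and X. tropicalis female (right) for 36 named members; red is vegetal-high, blue is animal-high, colours end at -3 and 3, and grey was not tested. The rows of ppp1r2, ppm1d and ppp2r5a are coloured strongly in X. laevis and faintly in X. tropicalis, and those of ppp1r3b, ptpn9 and ptprq are coloured in both.

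Across the 96 members tested in both species, the difference between the hemispheres itself differed between X. laevis and X. tropicalis for 19 (19.8%), beside 12.5% of all models tested in both (edgeR interaction over 12 libraries). This test took the 4 X. laevis batches as separate blocks, although they come from 2 females. It also used 1 spread per model for both species. The coefficient of variation between libraries beyond counting was 0.132 in the X. laevis fit and 0.0468 in the X. tropicalis fit. Library depth also differed between the species, and both were counted on X. tropicalis gene models, which cannot be told apart from species. Some calls missed the threshold when a batch was left out, at differences close to those of all batches. Without A_t2 or without B_t2 this held for dusp23 (-0.96 and -1.02), dusp7 (1.59 and 1.47), ppp1r9a (0.91 and 0.92) and ppp2r3a (0.79 and 0.70). It also held for dusp7 (1.57) and ppp2r3a (0.78) without A_t1 and for ppp2r2b (-0.60) without B_t2. By DESeq2, dusp3, dusp7 and ppp1r9a missed the threshold (adjusted p = 0.0553, 0.112 and 0.0556), and ppp1r3b and ppp2r2d passed it (adjusted p = 0.0118 and 0.0381). Without the block, 8 of the 19 calls remained, beside 3.92% of all models. Those lost, at differences close to those with it, were dusp3, dusp7, dusp11, dusp23, ppm1f, ppp1r9a, ppp2r2b, ppp2r3a, ppp4c, ppp4r1l and ppp6c. Of the 19 calls, 9 were shifted toward vegetal and 10 toward animal in X. tropicalis relative to X. laevis. In separate tests of each species, 13 members (13.5%) were called in the same direction in both, beside 12.7% of all models. They were ppp1cb, ppp1r3b, ppp1r13b, ppp6r3, ptpn3 and ptpra in vegetal, and dusp16, ppp3r1, ppp4r1, ppp6c, ppp6r1, ptpn9 and ptprq in animal libraries. Only the named members among these were followed gene by gene in the alternative runs. Of those, ppp1cb (0.46), ppp1r13b (0.51), ppp6c (-0.52) and ptpn3 (0.66) were not called in X. laevis in female B alone, with 2 pairs. Their values kept the same direction. By DESeq2 and with library totals alone, the X. tropicalis call of ppp1cb was lost. The rest of the shared members, such as ppp6r3 and ptpra, were not followed, and female B alone gave 4 vegetal calls over all members. A further 3 members, ppm1d, ppp2r5a and dusp19, were called animal in X. laevis and vegetal in X. tropicalis, beside 2.13% of all models, and of these the interaction passed for ppm1d and ppp2r5a. The X. tropicalis call of dusp19 rested mainly on female 2, with log2 pair differences of 0.017 in female 1 and 0.62 in female 2. With the block kept, the X. tropicalis vegetal calls of ppm1d and ppp2r5a were lost by DESeq2 (adjusted p = 0.287 and 0.215) and with library totals alone (adjusted p = 0.12 and 0.0847). Another 20 were called in X. laevis alone, 20 in X. tropicalis alone and 40 in neither. The matching shares of all models were not computed, so whether these counts are high or low was not tested.

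**Figure D4:**
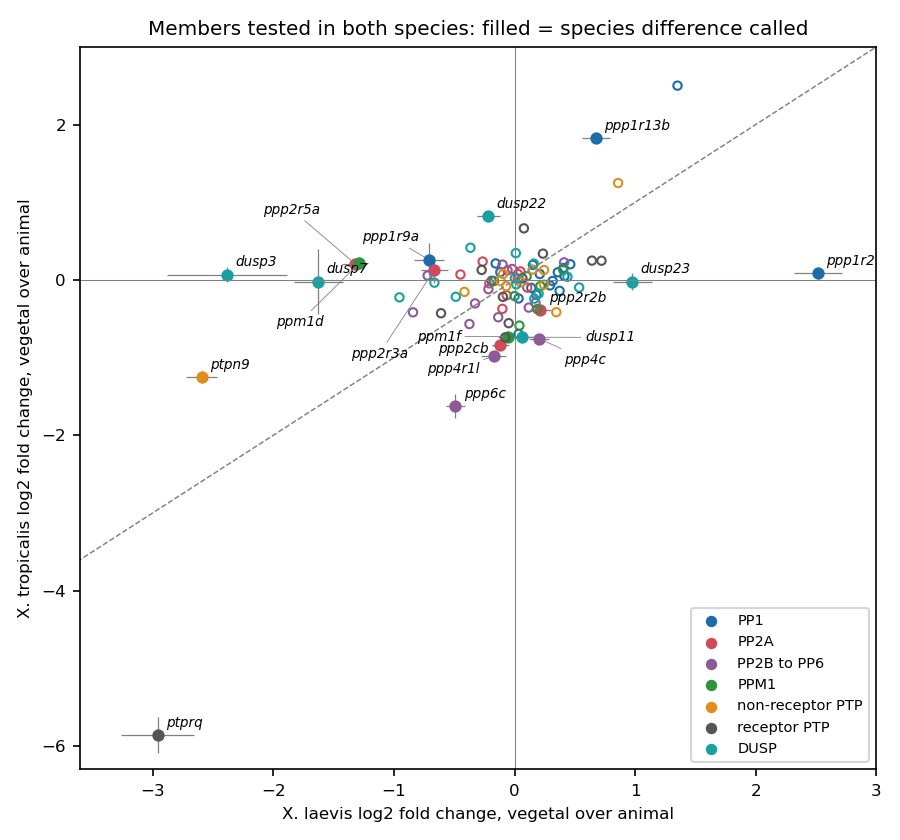
Log2 fold change, vegetal over animal, of 96 phosphatase genes in X. laevis (horizontal axis) and X. tropicalis (vertical axis), coloured by family; filled circles with names and SE bars passed the test of the species difference, and the dashed line marks equal values. The gene ppp1r2 lies far right of the line at 2.51 and 0.09, and ptprq far below at -2.96 and -5.86. The X. tropicalis SE bar of ptprq understates its uncertainty, given the low vegetal counts.

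Levels also differed between the X. laevis females. All 4 libraries of a female lay above all 4 of the other for 31 of 108 tested members (28.7%), beside 26.3% of all models. Among tested members, some receptor tyrosine phosphatases, chosen after their values were seen, had the largest ratios. The gene ptpro was at 3.71 to 4.91 CPM in female A and at most 0.222 CPM in female B, a 37.7-fold ratio of means. The mean in female B was 0.115 CPM, where 3 counts correspond to 0.0679 to 0.0986 CPM, so the size of this ratio is imprecise. The gene ptprt was at 0.513 to 0.926 CPM in female A and 8.56 to 12.3 CPM in female B, a 13.4-fold ratio in the opposite direction. The gene ptprz1 was 4.24-fold higher in female A and ptpra 2.68-fold higher in female B. With 1 female on each side these are values without a test, and whether they reflect the animals or the handling of their oocytes cannot be told apart.

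Related genes outside the symbol rule were examined as 3 lists. Over all models, 13.2% were called vegetal and 14.4% animal in X. laevis, and 15.6% and 17.3% in X. tropicalis. Of 43 other protein phosphatase genes tested in X. laevis, 10 were called vegetal and 10 animal (median log2 -0.10), and in X. tropicalis 8 and 6 of 40 (median 0.11). The carboxy-terminal domain phosphatase gene ctdspl was at 26.9 to 36.4 CPM in animal and 116 to 183 CPM in vegetal libraries of X. laevis, and at 11.2 and 15.7 against 90.2 and 151 CPM in X. tropicalis. Its log2 fold changes were 2.21 ± 0.09 and 3.18 ± 0.09 (edgeR adjusted p = 3.59e-06 and 2.39e-76). The prenylated tyrosine phosphatase gene ptp4a3 was also higher in vegetal libraries of both (2.24 ± 0.11 and 2.43 ± 0.09, adjusted p = 9.6e-06 and 4.07e-58), whereas its relative ptp4a2 was higher in animal libraries of both (-0.86 ± 0.08 and -0.51 ± 0.09, adjusted p = 0.000204 and 2.39e-07).

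Of 34 genes for inhibitors and partners of PP1 and PP2A, 3 were called vegetal and 6 animal in X. laevis (median 0.04), and 2 and 11 in X. tropicalis (median -0.14). For all models the shares were 13.2% and 14.4% in X. laevis, and 15.6% and 17.3% in X. tropicalis, also for the list below. The myosin phosphatase partner gene mprip was at 77.0 to 104 CPM in animal and 6.65 to 15.4 CPM in vegetal libraries of X. laevis (log2 -3.06 ± 0.14, edgeR adjusted p = 8.56e-06), and -1.48 ± 0.23 in X. tropicalis (adjusted p = 2.33e-08). In the pathway that inhibits PP2A-B55 at entry into division, the kinase gene mastl was slightly higher in vegetal libraries of X. laevis (0.28 ± 0.07, adjusted p = 0.027). Its substrate gene arpp19 was higher in animal libraries of X. tropicalis (-0.51 ± 0.06, adjusted p = 3.03e-13). These values come from different species, so they do not compare the kinase with its substrate within a species. Of 31 lipid and inositol phosphatase genes in X. laevis, 3 were called vegetal and 9 animal (median -0.32), and in X. tropicalis 3 and 8 of 30 (median -0.02). The phosphoinositide phosphatase gene tmem55a was higher in animal libraries of both species (-1.06 ± 0.11 and -2.05 ± 0.08, adjusted p = 0.00039 and 1.04e-56).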

How the data were processed

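Reads were counted by the authors, and the deposited files hold raw counts per gene model, per the file headers and values. Bowtie2 2.1.0 is named in the submitters' processing notes, as are DESeq and edgeR, without versions. For the genome build, counting program and strand setting, nothing is given in the sources used here, so overlapping and antisense genes are uncertain. Both species use the same X. tropicalis gene models, and no coordinates or sequences are printed. Per the labels' protocols, hand-dissected pieces were frozen, digested with proteinase K, extracted with phenol and chloroform, and total RNA was precipitated before standard Illumina library preparation.

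Each species was fitted with edgeR 4.0.16 (limma 3.58.1, R 4.3.3) over its own libraries: filterByExpr, TMM scaling, batch (X. laevis) or female (X. tropicalis) as a block, quasi-likelihood F test, Benjamini-Hochberg adjustment over all models tested (14517 and 12916), with an adjusted p under 0.05 called. The species difference was the interaction in a fit of all 12 libraries with 6 blocks (11688 models). SE is the absolute log2 fold change over the square root of F. For a large fold with very low counts in a hemisphere, as for ptprq in X. tropicalis, it understates the uncertainty. Library pairs share a batch or female per the labels. Same-batch deviations correlated at 0.701 to 0.844 in X. laevis, and different batches of a female at 0.755 to 0.833, so the values separate the females and not the batches. In X. tropicalis the value was 0.797, and centring 2 pairs makes it the mirror of the unmatched value. On simulated data the fits recovered 99% (X. laevis, 14378 genes), 99% (X. tropicalis, 12779 genes) and 69% (interaction, 11555 genes) of changes of 1 on the log2 scale, and 100%, 100% and 97% of changes of 2. False calls made up 2.93%, 6.13% and 3.49% of the calls in these runs, in the same order. Recovery was not split by the level or the spread of a gene. For low-count members such as dusp3 and dusp7, and for genes with a wide spread between libraries, recovery was not tested. P-values measure the spread between these libraries. Counting limits cover counting error only.

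The members and lists were chosen with earlier results of these data known. Named genes were members called at 2-fold or more, catalytic and B55 or B56 subunits, those called in the species test, and those tested in 1 species with a mean of at least 5 CPM. From each related list at most 3 genes per direction and species were named, by adjusted p. Alternatives were other scalings, low-count filters, DESeq2 1.42.0, no block, single females and leaving out each replicate. Figures used matplotlib 3.10.9. The marker lists were for oocyte, vegetal, follicle, blood and endothelium, immune and connective tissue cells.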

Additional observations from a re-analysis of the deposited data

Results flagged for a closer look

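For 19 members the difference between hemispheres differed between the species by edgeR's interaction test. The log2 difference (Xt minus Xl) was 2.40 for dusp3, 1.59 for dusp7, 1.54 for ppp2r5a, 1.51 for ppm1d, 1.33 for ptpn9, 1.15 for ppp1r13b, 1.04 for dusp22, 0.95 for ppp1r9a and 0.79 for ppp2r3a, all shifted toward vegetal in X. tropicalis. It was -2.95 for ptprq, -2.44 for ppp1r2, -1.14 for ppp6c, -0.99 for dusp23, -0.96 for ppp4c, -0.81 for ppp4r1l, -0.80 for dusp11, -0.71 for ppp2cb, -0.67 for ppm1f and -0.59 for ppp2r2b, all shifted toward animal. Adjusted p-values ran from 0.000173 (ppm1d) to 0.0411 (dusp7).

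In ptpn9 the vegetal library of X. laevis batch A_t2, at 22.0 CPM, stood apart from the other vegetal libraries, whose lowest was 31.9 CPM. This was 1 of 70 groups of 4 libraries examined, and chance marks about 1 group in 20.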

How the results depend on the processing

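Counts of called members are given with the share of all models called in the same fit. Without the replicate block, X. laevis gave 9 vegetal calls in place of 18 (all models 6.19%) and 15 animal in place of 20 (7.78%), X. tropicalis 2 and 2 in place of 16 and 21 (1.35% and 0.681%), and the species test 8 in place of 19 (3.92%). Leaving out 1 batch gave 9 to 18 vegetal (5.52% to 14.4%) and 13 to 23 animal calls (6.33% to 15.1%) in X. laevis. Leaving out 1 library, in fits without the block where the lone library is assumed to vary like the others, gave 2 to 4 (0.875% to 2.47%) and 1 to 6 (0.101% to 2.25%) in X. tropicalis. Female A alone gave 10 vegetal and 13 animal calls (7.59% and 10.7%), and female B alone 4 and 13 (6.02% and 7.85%). A mean of at least 5 CPM left 13 animal calls among 87 tested members in X. laevis (14.9%), below the 18.3% of all models, where the 20 of 108 (18.5%) had been above the 14.4%. In X. tropicalis, vegetal calls were 8 with library totals alone (11.1%) and 6 by DESeq2 (7.89%). Requiring 2-fold left 2 and 6 calls in X. laevis (3.01% and 3.58%) and 3 and 4 in X. tropicalis (3.29% and 3.63%). The cause of these changes was not tested in any run.

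Some log2 fold changes changed sign. Most were near 0 and not called, the exceptions in X. tropicalis being ppm1d and ppp2r5a, called at 0.21 each, and ppp3cb at -0.36, not called. With library totals alone, dusp11 and ppp2r2c in X. laevis became -0.0068 and -0.058, and ppp3ca in X. tropicalis -0.0043. With female B alone, dusp11, ppp2r2c and ppp5c became -0.013, -0.12 and 0.063. With female A alone, ppp1r3c.1 and ppp3cc became 0.16 and 0.11. Without the replicate block ppp1r3c.1 became 0.038, and with other size factors or DESeq2 ppp5c became 0.00534 and 0.00532. Leaving out 1 batch, X. laevis values ran from -0.062 to 0.0022 for ppm1f, -0.20 to 0.20 for ppp1r3c.1, -0.031 to 0.13 for ppp2r2c, -0.17 to 0.0035 for ppp2r5e, -0.26 to 0.15 for ppp3cc and -0.034 to 0.060 for ppp5c. Leaving out 1 library, X. tropicalis values ran from -0.48 to 0.45 for dusp23, -0.42 to 0.15 for dusp7, -0.016 to 0.50 for ppm1d, -0.077 to 0.23 for ppp1r2, -0.27 to 0.21 for ppp2r2a, -0.30 to 0.57 for ppp2r3a, -0.090 to 0.47 for ppp2r5a, -0.0098 to 0.16 for ppp2r5c, -0.055 to 0.18 for ppp3ca and -0.91 to 0.059 for ppp3cb. Depth limits members under about 1 CPM, such as the vegetal values of dusp3 and ptprq.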
